A study of Mus musculus with 5 samples.

Results

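Receptor genes that hold blood cells in the bone marrow or guide their movement were followed through every cell class of the series. They were taken by name, as the rows of Cxcr4, Itga4, Itgb1, Itga6, Cd44, Selplg and S1pr1, and all 7 were found among the 27998 genes of the tables. The series holds 5 single-cell RNA libraries of mouse bone marrow, 2 from aged mice (over 20 months, replicates 2 and 3) and 3 from young mice (10 to 12 weeks, replicates 1, 2 and 3). Every mouse, aged or young, was of the Nes-GFP strain. The sorted population is labelled as endothelium, CD45-CD31+, from marrow next to the bone (endosteal preparations). The cells were frozen and thawed before droplets were formed, and each RNA molecule was counted once at its 3' end through a unique molecular identifier (UMI).

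The cells went against their label. Of 2116 kept cells, 1905 fell into clusters of the B lineage, 742 of them dividing, and 211 fell outside it. All 8 genes of a B-lineage list were detected, at a summed 12383 to 17102 UMIs per 1000000 in the non-dividing cells of each library. Outside the B lineage, 19 cells were gated on 14 endothelial genes, so their high counts of these genes follow from the gate. Of the 14, 12 had more UMIs in these 19 cells than in all 1163 non-dividing B-lineage cells. Among them were Cdh5, a junction protein of vessels (58 against 3 UMIs), and Plvap, a diaphragm protein (38 against 0). The other 2 had fewer, Eng with 22 against 162 UMIs and Egfl7 with 74 against 90. Libraries held 935656 to 5900751 UMIs, and young replicate 1, the deepest, stood apart. Dividing cells made up 84.4% of its B-lineage cells, against 11.9% to 12.6% in the other 4 libraries, and it held most cells outside the B lineage. Both libraries numbered 2 had 0 Xist UMIs, against 2351 or more in the other 3. They held 313 (aged) and 264 (young) UMIs of Y-linked genes, against at most 2 in the other 3. Each age group thus held libraries of both kinds. In all, 26 barcode sequences occurred in more than 1 library, 5 of them among kept cells.

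B cells form in the marrow in steps. Pro-B cells make the surrogate light chain, small pre-B cells recombine a light chain gene, and immature B cells carry MHC class II and a finished receptor before they leave for the blood. CXCR4 is the receptor for the stromal chemokine CXCL12 and keeps precursors near the cells that make it. The integrin chain α4 pairs with β1 to form VLA-4, which binds VCAM-1 on stroma, and the α6 chain pairs with β1 to bind laminin. CD44 binds hyaluronan, PSGL-1 (the product of Selplg) binds selectins on vessel walls, and S1PR1 senses sphingosine 1-phosphate, the lipid that draws lymphocytes into the blood.

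All 7 genes are protein coding. On GRCm38, GENCODE release M21 places Cxcr4 at chr1:128588199-128592293 on the minus strand, Itga4 at chr2:79255426-79333123 and Itgb1 at chr8:128685654-128733200 on the plus strand. Itga6 lies at chr2:71745616-71858416 on the plus strand, Cd44 at chr2:102811141-102901665, Selplg at chr5:113818536-113832644 and S1pr1 at chr3:115710433-115715072, these 3 on the minus strand. The annotation puts 2 other genes over Itga6 on its own strand, neither of which is counted in the tables.

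The upstream sequences shown here belong to the 4 receptors that differed between immature B and pro-B cells, the only members for which RefSeq's promoter table had an entry. Each is the 250 bases before the annotated start on GRCm38.p6, 5′ to 3′ on the gene's strand, with every GC box (GGGCGG on either strand) in capitals.
Cxcr4, chr1:128592300-128592549, minus strand: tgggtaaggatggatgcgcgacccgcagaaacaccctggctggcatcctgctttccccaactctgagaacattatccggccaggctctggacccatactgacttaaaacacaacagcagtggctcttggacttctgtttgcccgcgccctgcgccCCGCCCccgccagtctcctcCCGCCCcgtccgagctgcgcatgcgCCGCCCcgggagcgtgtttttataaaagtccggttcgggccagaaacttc
Cd44, chr2:102901666-102901915, minus strand: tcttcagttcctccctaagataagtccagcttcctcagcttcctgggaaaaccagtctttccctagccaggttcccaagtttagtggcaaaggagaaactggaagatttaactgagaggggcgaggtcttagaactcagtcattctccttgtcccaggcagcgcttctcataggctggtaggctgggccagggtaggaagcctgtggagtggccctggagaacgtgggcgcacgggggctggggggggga
Itga4, chr2:79255176-79255425, plus strand: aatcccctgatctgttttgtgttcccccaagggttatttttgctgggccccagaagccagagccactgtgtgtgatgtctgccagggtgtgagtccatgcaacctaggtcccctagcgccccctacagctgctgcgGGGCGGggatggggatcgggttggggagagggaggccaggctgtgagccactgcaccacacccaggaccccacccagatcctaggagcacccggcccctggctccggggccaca
Itgb1, chr8:128685404-128685653, plus strand: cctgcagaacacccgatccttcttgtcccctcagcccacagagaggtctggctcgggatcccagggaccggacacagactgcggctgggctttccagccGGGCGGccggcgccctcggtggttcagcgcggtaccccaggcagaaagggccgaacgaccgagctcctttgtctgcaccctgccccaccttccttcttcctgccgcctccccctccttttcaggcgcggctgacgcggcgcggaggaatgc
The window of Cxcr4 held 3 GC boxes, those of Itga4 and Itgb1 held 1 each, and that of Cd44 held 0. Of 27025 mouse promoter windows of this length, 32.9% held at least 1. The E-box CANNTG, searched on both strands, was found once upstream of Itga4 and in 0 of the other 3 windows, against 66.0% of all windows. The 2 receptors that were higher in immature B cells thus carried 3 and 0 GC boxes, and the 2 that were lower carried 1 each.

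Within B-lineage clusters, which were computed without the 7 genes, cells were gated on marker UMIs after thinning each cell to 1000 UMIs. Dividing cells had at least 2 of 20 cell-cycle genes. Of the resting cells, those with at least 2 UMIs of the MHC class II genes were called immature B, those with at least 2 UMIs of the surrogate light chain genes and Dntt pro-B, those with Cd2 or Ms4a1 late pre-B, and those with Rag1 or Rag2 small pre-B. The gates were read in that order, so a cell that met both the MHC class II and the pro-B gate was called immature B. Here and below, surrogate light chain UMIs are those of the whole pro-B gate list, so they include Dntt, which is no surrogate light chain gene. These classes are ranges of marker counts, and 122 resting cells lay at 1 or 2 surrogate light chain UMIs, 244 at 1 or 2 MHC class II UMIs. The gates gave 367 pro-B, 61 small pre-B, 266 late pre-B and 259 immature B cells, and 210 resting cells met no gate. Levels are CPM, the gene's UMIs per 1000000 UMIs of all genes in a class summed per library. Over the B lineage, Cxcr4 rested on 2938 UMIs, Selplg on 582, Itga4 on 572, Cd44 on 534, S1pr1 on 392, Itgb1 on 203 and Itga6 on 161.

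**Figure D1:**
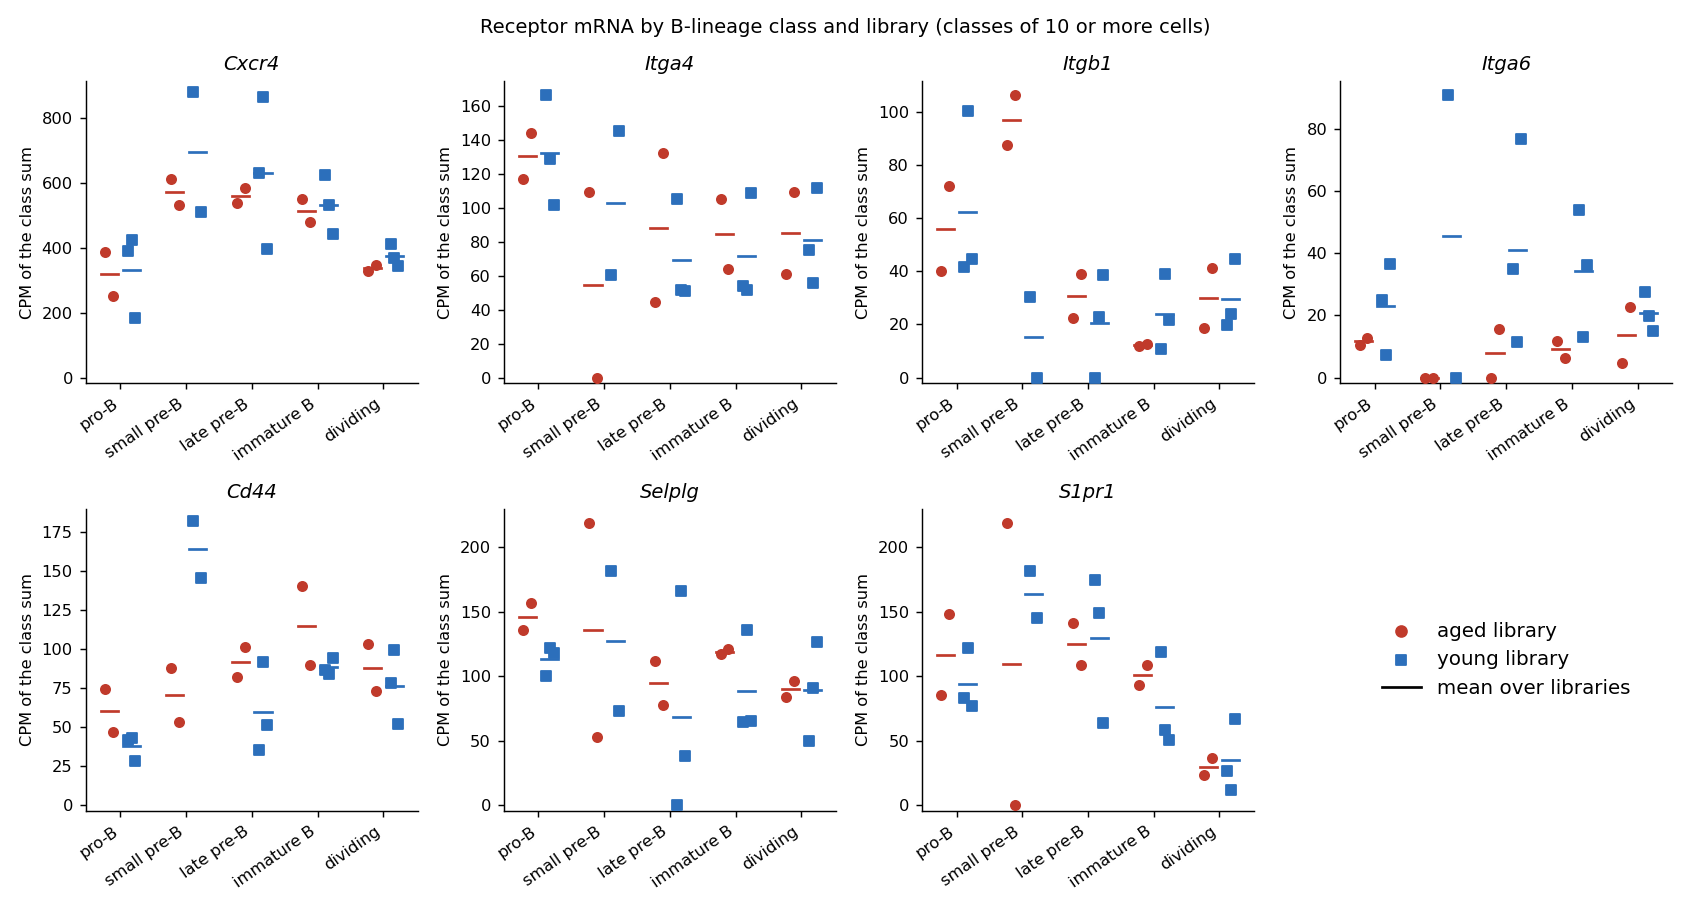
CPM of each receptor (vertical axis, linear) in the summed cells of each B-lineage class, with 1 point per library of at least 10 such cells, aged libraries as circles left of young libraries as squares, and bars at the group means. Cxcr4 has its lowest mean in pro-B cells, Itga4 and Cd44 run in opposite directions between pro-B and immature B cells, and S1pr1 sits lowest in dividing cells.

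Immature B cells had higher Cxcr4 and Cd44 levels and lower Itga4 and Itgb1 levels than pro-B cells of the same libraries. Cxcr4 was 1.63-fold and Cd44 2.01-fold the pro-B level, while Itga4 was at 0.598 and Itgb1 at 0.355 of it. Of the 6 receptors with enough UMIs to be tested, 2 rose and 2 fell, where 10.3% of all 3209 genes tested rose and 11.6% fell, 21.9% together. The test was edgeR's quasi-likelihood test over the 4 resting stages with the library as a block, with Benjamini-Hochberg adjustment over all genes. Of 10 marker lists of other cell types, 3 had library ranges that did not overlap between the 2 stages, and their part in the 4 calls was not tested. The 14 endothelial genes summed to 0 to 54.0 CPM in immature B and 125 to 386 CPM in pro-B cells, mostly Eng (5 against 150 UMIs) and Egfl7 (3 against 77), with Plvap at 0 in both. The 4 plasmacytoid dendritic genes summed to 188 to 256 CPM against 451 to 653 CPM, mostly Tcf4 (94 against 533 UMIs), with Siglech at 0 in both. The 6 progenitor genes summed to 6.39 to 11.7 CPM against 16.6 to 58.5 CPM, mostly Kit (1 against 43 UMIs), with Gata2 and Hlf at 0 in both. The median log2 difference of the 6 receptors was -0.32, against 0.012 over all genes tested.

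Cxcr4 in immature B cells stood at 549 and 480 CPM in aged replicates 2 and 3, and at 626, 531 and 441 CPM in young replicates 1, 2 and 3. In pro-B cells of the same libraries it stood at 386 and 250 CPM, and at 391, 422 and 183 CPM. Every library had more in its immature B cells, and the lowest immature B value lay above the highest pro-B value. The fitted log2 difference was 0.71 ± 0.15 (SE, adjusted p = 0.000117 by edgeR), and it lay between 0.39 and 0.96 over 13 alternative settings, all of them past the threshold. Over the stages, Cxcr4 averaged 326 ± 104 CPM in pro-B, 633 ± 170 in small pre-B, 602 ± 171 in late pre-B and 526 ± 70.5 in immature B cells (SD, n = 5 libraries, 4 for small pre-B). The step from pro-B to small pre-B was the one that moved, with a log2 difference of 0.89 ± 0.23 (adjusted p = 0.00327 by edgeR), where 13.6% of 3209 genes were called, 5.36% higher and 8.23% lower, and Cxcr4 was the sole receptor among them. Without young replicate 2 that step was 0.80 with an adjusted p of 0.0532. It was 0.51 (adjusted p = 0.296) with no filter on low counts and 0.42 (0.624) with the gates applied to all UMIs. Of the other 5 receptors tested, the log2 differences at that step ran from -0.68 to 1.01. Between the 3 later stages no receptor difference passed the threshold. In late against small pre-B cells 0.0623% of genes were called (0.0312% higher, 0.0312% lower). These were Rag1 and Cd2, genes that set the gates of these 2 stages, so that background follows from the gating. In immature B against late pre-B cells 2.99% of genes were called (1.56% higher, 1.43% lower). The 6 receptors' log2 differences ran from -1.09 to 0.014 in late minus small pre-B cells and from -0.56 to 0.33 in immature B minus late pre-B cells.

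Cd44 in immature B cells stood at 140 and 89.5 CPM in aged replicates 2 and 3, and at 86.3, 84.2 and 94.1 CPM in young replicates 1, 2 and 3. In pro-B cells it stood at 74.5 and 46.6 CPM, and at 41.6, 43.0 and 28.5 CPM. Immature B cells were higher in 5 of 5 libraries, and the 2 sets of values did not overlap. The log2 difference was 1.01 ± 0.30 (adjusted p = 0.00701 by edgeR). Without young replicate 3, where Cd44 differed most between the 2 stages, it was 0.85 with an adjusted p of 0.0638, and with the gates applied to all UMIs 0.67 (0.119). In between, Cd44 averaged 117 ± 57.7 CPM in small pre-B and 72.2 ± 28.0 CPM in late pre-B cells (SD, n = 4 and 5), so that neighbouring stages overlapped.

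Itga4 moved the other way. Immature B cells held 105 and 63.9 CPM in aged replicates 2 and 3, and 54.0, 51.8 and 109 CPM in young replicates 1, 2 and 3. Pro-B cells held 117 and 144 CPM, and 166, 129 and 102 CPM. The 2 sets overlapped, since young replicate 3 had slightly more in its immature B cells, and the other 4 libraries had less. The log2 difference was -0.74 ± 0.27 (adjusted p = 0.0358 by edgeR), and it stayed past the threshold in 5 of 13 alternative settings. Without aged replicate 3 it was -0.62 (adjusted p = 0.171), without young replicate 1 -0.60 (0.167) and without young replicate 2 -0.65 (0.115). Small pre-B, late pre-B and immature B cells averaged 78.9, 76.9 and 76.7 CPM, so the higher level was that of pro-B cells, at 132 ± 24.9 CPM (SD, n = 5).

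Itgb1, the partner chain, rested on 13 UMIs in all immature B cells and on 62 in all pro-B cells. It stood at 11.7 and 12.8 CPM in immature B cells of aged replicates 2 and 3 and at 10.8, 38.9 and 21.7 CPM in those of young replicates 1, 2 and 3. Pro-B cells had 39.9 and 72.0 CPM, and 41.6, 100 and 44.7 CPM. Immature B cells were lower in 5 of 5 libraries, by a log2 difference of -1.49 ± 0.45 (adjusted p = 0.00918 by edgeR). Without aged replicate 3 the difference was -1.24 with an adjusted p of 0.116, and with the gates applied to all UMIs -1.12 (0.0632).

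Selplg and S1pr1 gave no stage call. Selplg averaged 101 ± 33.6 CPM in immature B and 126 ± 21.2 CPM in pro-B cells, a log2 difference of -0.34 ± 0.25 (adjusted p = 0.379). S1pr1 averaged 86.0 ± 30.2 CPM in immature B and 103 ± 30.7 CPM in pro-B cells, a log2 difference of -0.30 ± 0.27 (adjusted p = 0.500, both by edgeR, SD over n = 5). Its highest means were in small pre-B cells, at 137 ± 95.9 CPM, and in late pre-B cells, at 128 ± 42.7 CPM, within the spread of the other stages. Itga6 had too few UMIs for the stage test, with 14 UMIs in immature B and 20 in pro-B cells.

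The surrogate light chain count that sets the pro-B gate also ordered the resting cells below the MHC class II gate, which gives a finer view of the same gate with immature B cells left out. There, Cxcr4 averaged 559 CPM at 0 surrogate light chain UMIs of 1000, 616 CPM at 1, 442 CPM at 2 to 4 and 304 CPM at 5 or more. Itga4 averaged 64.5, 75.7, 136 and 137 CPM over the same bins, and Cd44 102, 69.1, 70.0 and 40.9 CPM. Itgb1 averaged 29.9, 40.3, 14.2 and 58.7 CPM. Cxcr4 and Cd44 were lowest, and Itgb1 highest, in the bin with most surrogate light chain UMIs. Itgb1, however, had its lowest mean at 2 to 4 UMIs, which lies inside the pro-B gate. Itga4 was level between the upper 2 bins, of which the 2 to 4 bin held only 3 libraries. In aged replicates 2 and 3 it was higher at 2 to 4 UMIs (120 and 207 CPM) than at 5 or more (116 and 134 CPM). In young replicate 3 it was lower at 2 to 4 UMIs (81.6 against 105 CPM). The bins held 448, 82, 71 and 287 cells in 3 to 5 libraries, and no test was made on them.

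**Figure D2:**
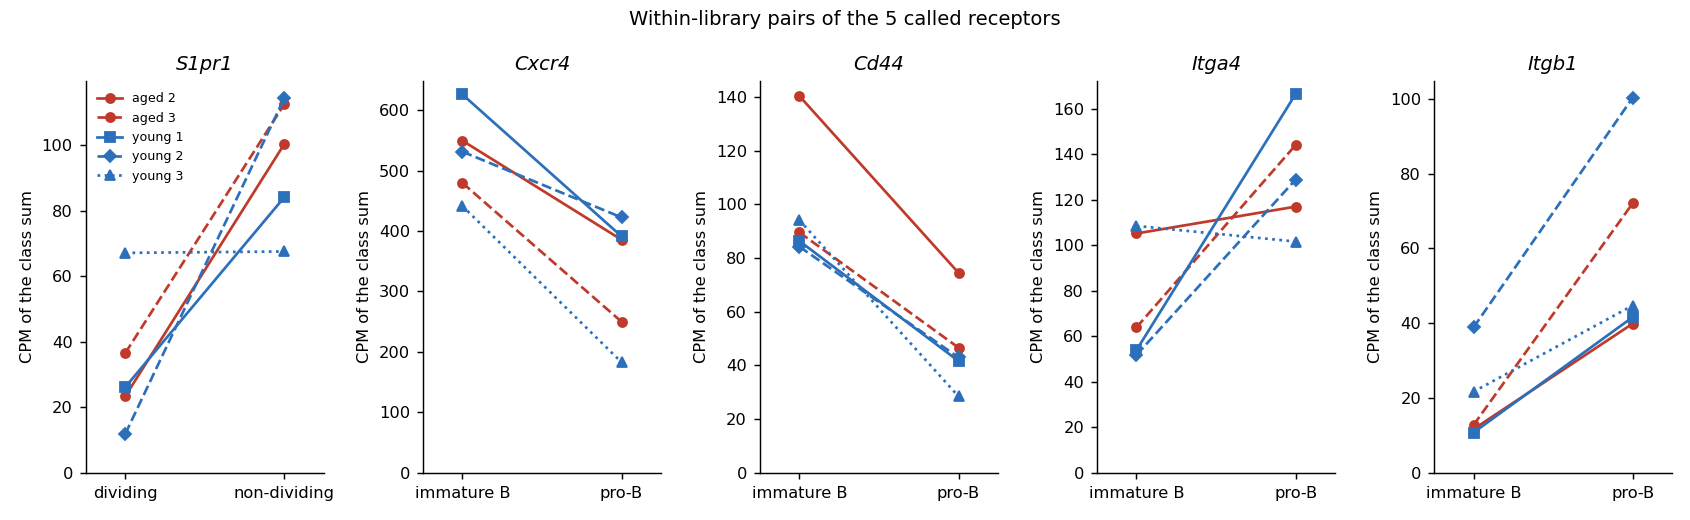
CPM (vertical axis, linear, from 0) of the 5 receptors that passed a test, with 1 line per library between the 2 classes compared, aged libraries in red and young libraries in blue. The immature B end is higher in all 5 lines for Cxcr4 and Cd44 and lower in all 5 for Itgb1, while Itga4 and S1pr1 are nearly level in young replicate 3.

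Cluster 6, with 122 cells of which 85 came from aged replicate 2, held 25 of the 49 barcodes called doublets and was named pro-B from its surrogate light chain genes. Inside aged replicate 2, Cxcr4 stood at 483 CPM in the 85 cells of cluster 6 (95% Poisson interval 404 to 572) and at 291 CPM in the 47 cells of cluster 3, the other pro-B cluster (214 to 387). These intervals cover counting error only. With cluster 6 left out, a setting chosen after seeing the data, immature B minus pro-B gave 0.86 for Cxcr4, 1.21 for Cd44, -0.79 for Itga4 (adjusted p = 0.0269 by edgeR) and -1.62 for Itgb1 on the log2 scale, each past the threshold. Itga4 in aged replicate 2 stood at 76.3 CPM in cluster 6 (47.2 to 117) and at 124 CPM in cluster 3 (75.6 to 191).

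Among 133 other adhesion and homing genes in the tables, 45 could be tested between the stages, and 10 rose and 8 fell in immature B cells, 40% of those tested against 21.9% of all genes. Of the chemoattractant receptors, Ccr7, which guides lymphocytes to lymph nodes, stood at 171 ± 53.6 CPM in immature B and 15.3 ± 10.4 CPM in pro-B cells (log2 3.19 ± 0.34, adjusted p = 2.47e-13), and S1pr4, another sphingosine 1-phosphate receptor, fell by 0.76. Klf2, a transcription factor known to drive S1pr1 in T cells, stood at 448 ± 127 CPM against 102 ± 29.9 CPM (log2 2.09, adjusted p = 5.27e-18), although S1pr1 itself gave no call. Rasgrp2, an activator of the integrin switch Rap1, fell to 133 ± 44.7 CPM against 572 ± 130 CPM in pro-B cells (adjusted p = 3.59e-18). It was the single call among 9 genes of integrin activation. Icam1 (-2.72) and Cd9 (-2.61) also fell on the log2 scale, and Ezr, which links CD44 to the actin cortex, rose by 0.88. Adjusted p-values are from edgeR, and SDs are over n = 5 libraries.

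The remaining named genes of that comparison were the signalling regulator Rgs2, which rose by 0.92, and 2 enzymes of selectin ligand synthesis that moved in opposite directions. These were B4galt1, which rose by 0.93 on the log2 scale, and St3gal6, which fell by 1.33. In small pre-B against pro-B cells, 5 of the 45 rose and 5 fell, 22.2% against 13.6% of all genes, with the smallest p for Klf2 (2.14), Rasgrp2 (-1.97) and B4galt1 (1.78). Rgs2 (0.86), Foxo1 (1.07) and Ccr7 (2.22) also rose, and St3gal6 (-4.04), Icam1 (-3.84), Gnai2 (-1.41) and Cd9 (-2.54) fell. In immature B against late pre-B cells Cd24a rose by 0.50 and Klf2 fell by 0.54, the 2 called of 45, 4.44% against 2.99% of all genes. In late against small pre-B cells none of the 45 was called by edgeR, against 0.0623% of all genes, which were the gate genes Rag1 and Cd2. Of the 45, 11.1% had an unadjusted p under 0.05 by edgeR, against 7.20% of all genes. The smallest p-values there were those of Ezr (0.71), Gnai2 (0.92) and Klf2 (0.49), which did not pass.

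**Figure D3:**
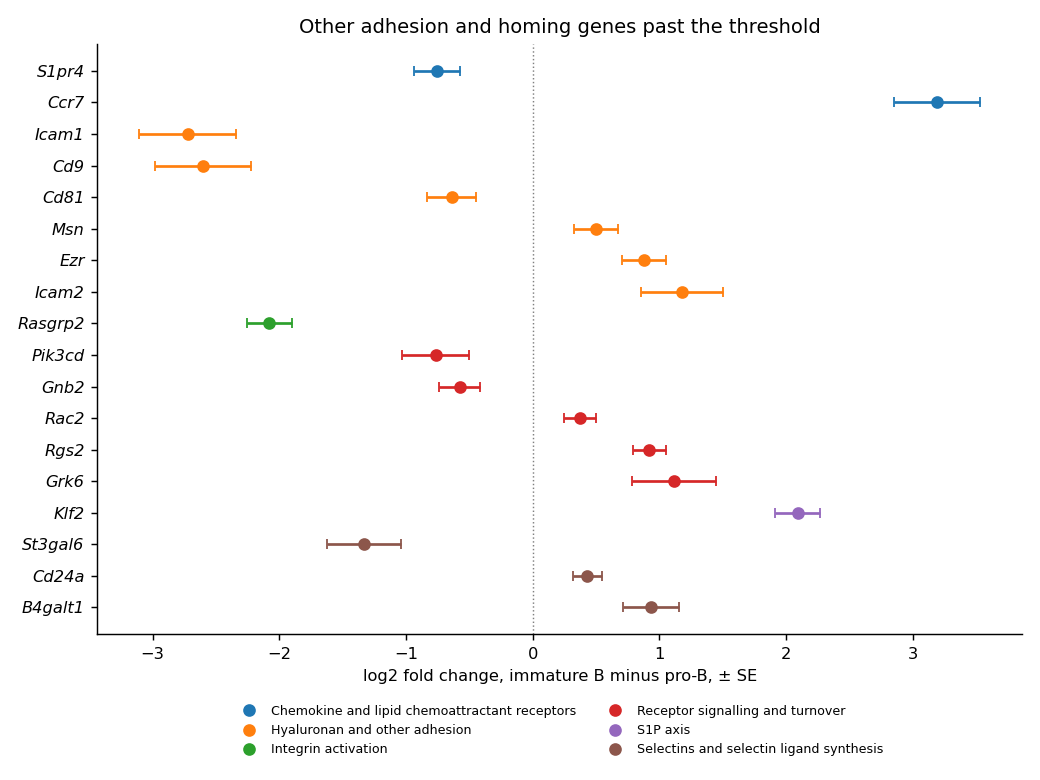
Log2 fold change with its SE (horizontal axis) of the 18 other adhesion and homing genes that passed the threshold between immature B and pro-B cells, coloured by list. Ccr7 and Klf2 lie farthest to the right, and Icam1, Cd9 and Rasgrp2 farthest to the left.

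S1pr1 reached 0.326 times its non-dividing level in dividing cells. It was the 1 receptor of 7 called, where 37.8% of 6701 genes were called, 19.9% higher and 17.9% lower. The median log2 difference of the 7 was -0.28, against -0.065 over all genes tested. The test compared both classes within each library (edgeR's quasi-likelihood test, library as a block). These levels are shares of all UMIs, not amounts per cell, and dividing cells held more UMIs. Over all libraries, the median was 4144 UMIs in S-phase and 4085.5 in G2/M cells, against 1820 to 2778 in the resting classes. Amounts per cell were not tested.

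S1pr1 in dividing cells stood at 23.4 and 36.6 CPM in aged replicates 2 and 3, and at 26.2, 11.9 and 67.1 CPM in young replicates 1, 2 and 3. In non-dividing cells it stood at 100 and 113 CPM, and at 84.1, 114 and 67.5 CPM. Dividing cells were lower in 4 libraries and level in young replicate 3, where the dividing value rests on 9 UMIs in 37 cells. The log2 difference was -1.62 ± 0.27 (adjusted p = 0.000104 by edgeR). It was -1.63 without young replicate 1, the library of mostly dividing cells, and past the threshold in 15 of 15 alternatives, between -2.05 and -1.37. The comparison was repeated, in settings chosen after seeing the data, within cells that carried surrogate light chain UMIs and within cells with few of them. The log2 differences were -2.05 and -1.46, both past the threshold. The 14 endothelial genes summed to 32.7 to 73.1 CPM in aged and 15.9 to 37.3 CPM in young dividing cells, against 94.9 to 166 CPM in aged and 38.7 to 182 CPM in young non-dividing cells. In dividing cells these were mostly Egfl7 (52 UMIs), Fabp4 (25) and Eng (20), with Plvap, Esam, Cldn5, Robo4, Cav1 and Gpihbp1 at 0. Of 10 marker lists of other cell types, only the plasmacytoid dendritic one did not overlap between the 2 classes, at 165 to 239 CPM in dividing and 296 to 400 CPM in non-dividing cells, mostly Tcf4 (505 and 839 UMIs), with Siglech at 0. The part of these lists in the S1pr1 result was not tested.

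Cxcr4 did not pass the threshold. Dividing cells had 327 and 347 CPM in aged replicates 2 and 3, and 411, 369 and 343 CPM in young replicates 1, 2 and 3. Non-dividing cells had 456 and 409 CPM, and 464, 663 and 319 CPM. Dividing cells were lower in 4 of 5 libraries, young replicate 3 being the exception, and the 2 sets overlapped. The log2 difference was -0.28 ± 0.13 (adjusted p = 0.104 by edgeR), and without young replicate 1 it was -0.34 with an adjusted p of 0.0303. With all 5 libraries the unadjusted p was 0.0484 by edgeR, and 46.7% of all genes tested had one under 0.05.

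The other 5 receptors gave no call between dividing and non-dividing cells. Itgb1 averaged 29.6 ± 12.4 CPM in dividing and 38.6 ± 6.90 CPM in non-dividing cells, and Itga4 82.6 ± 26.7 against 91.3 ± 12.7 CPM (SD, n = 5). Their log2 differences were -0.40 ± 0.28 and -0.14 ± 0.19, and that of Itga6 was -0.23 ± 0.36. Cd44 was slightly higher in the dividing cells of 5 of 5 libraries, at 81.1 ± 20.7 against 73.1 ± 16.3 CPM, a log2 difference of 0.20 ± 0.18. Selplg averaged 89.6 ± 27.5 against 114 ± 29.1 CPM, a log2 difference of -0.34 ± 0.18, and was called (-0.99, adjusted p = 0.0165 by edgeR) within the cells with surrogate light chain UMIs.

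Inside young replicate 1, the 1 library with at least 10 cells of both phases, the dividing cells were split into 284 with more G2/M than S-phase UMIs and 311 others. Cxcr4 stood at 490 CPM in the G2/M cells (95% Poisson interval 454 to 528) and at 349 CPM in the S-phase cells (322 to 377). Selplg stood at 70.1 CPM (57.0 to 85.2) against 33.7 CPM (25.7 to 43.3). Cd44 was at 91.1 against 67.3 CPM and Itga6 at 27.3 against 27.5 CPM. No test was possible with 1 library, and the intervals cover counting error only. In the S-phase cells of the other 4 libraries Cxcr4 lay between 316 and 350 CPM, and in their 4 to 9 G2/M cells each between 210 and 532 CPM.

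Of the 133 other adhesion and homing genes, 66 could be tested in dividing against non-dividing cells, where 10 rose and 21 fell, 47.0% against 37.8% of all genes. Of 4 tested genes around S1P, 3 fell. These were Foxo1 (-0.95), Cd69 (-0.83), whose product pulls S1PR1 off the cell surface, and Klf2 (-0.85), the last named after its value was seen. The hyaluronan receptor Hmmr, also a mitotic spindle protein, stood at 65.5 ± 28.1 CPM in dividing and 3.78 ± 7.64 CPM in non-dividing cells (SD, n = 5; log2 4.52 ± 0.53, adjusted p = 1.27e-06 by edgeR). Cd24a (0.76), Rdx (1.04) and Cd81 (0.66) rose on the same scale. B4galt1 (-0.93), Rgs2 (-0.77), the junction gene Pecam1 (-0.90), whose product CD31 was the sort marker, and the integrin chain Itgb3 (-2.11) fell.

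**Figure D4:**
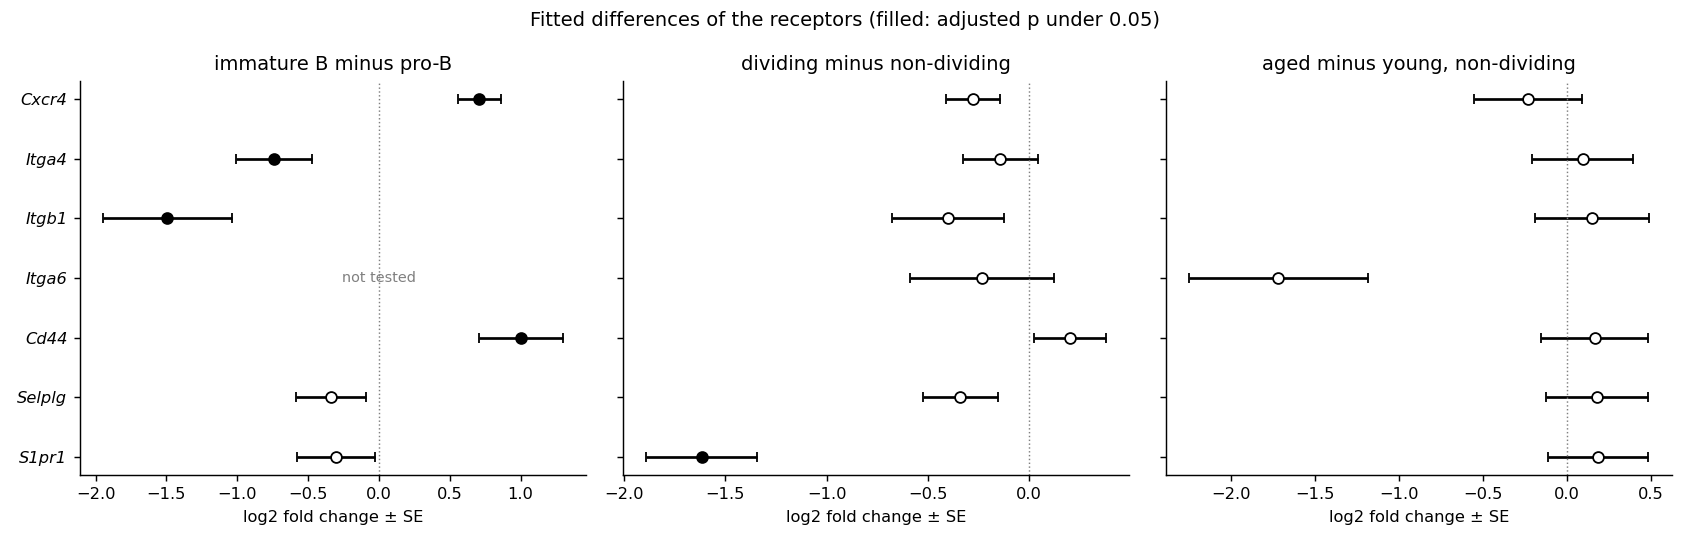
Fitted log2 fold change ± SE (horizontal axis) of the 7 receptors for immature B minus pro-B, dividing minus non-dividing, and aged minus young cells, with filled points for an adjusted p under 0.05. Cxcr4, Itga4, Itgb1 and Cd44 are filled in the first panel, S1pr1 in the second and none in the third.

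No receptor was called between aged and young cells. In non-dividing cells 0 of 6518 genes passed by edgeR, a background of 0%, and 122 had an unadjusted p under 0.05 by edgeR. With DESeq2, 0 genes passed the adjusted threshold. In dividing cells 1 of 3691 genes passed, 0.0271%, and it was H1f0, a linker histone gene, named here after its value was seen. Within pro-B, late pre-B and immature B cells 0 genes passed by edgeR, with 90, 54 and 90 at an unadjusted p under 0.05, and in small pre-B cells 1 of 400 did (0.25%), the gene model Gm8369. The change of the age difference between dividing and non-dividing cells gave 0 calls in 6701 genes (0%, 211 at an unadjusted p under 0.05 by edgeR). The receptors' log2 differences by age ran from -0.23 to 0.19 in dividing cells (4 tested), -0.20 to 0.73 in pro-B (6 tested), -0.24 to 0.55 in late pre-B (5 tested) and -0.11 to 0.46 in immature B cells (5 tested), and the 1 tested in small pre-B cells was at -0.44. The change of the difference between dividing and non-dividing cells ran from -0.21 to 0.93 over the 7.

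Itga6 had the largest log2 difference by age of the receptors in non-dividing cells, but it was not called. Non-dividing cells had 8.14 and 11.8 CPM in aged replicates 2 and 3, from 6 and 8 UMIs, and 37.7, 19.4 and 38.1 CPM in young replicates 1, 2 and 3, from 13, 11 and 22 UMIs. Both aged libraries lay below every young library. The share of all genes that separated in this way was not determined, so the separation is a description only. The log2 difference was -1.72 ± 0.53, with an unadjusted p of 0.00682 and an adjusted p of 1.00 by edgeR. It kept its sign in all 14 alternatives run. Since the ages did not overlap, leaving out a library could not turn the sign, so those alternatives add no support. In dividing cells the ages overlapped, at 4.68 and 22.8 CPM in aged and 27.4, 19.8 and 14.9 CPM in young libraries. In pro-B cells they overlapped too, at 10.6 and 12.7 CPM in aged and 7.16 to 36.6 CPM in young libraries. Immature B cells had 11.7 and 6.39 CPM in aged libraries, and every young library lay above, up to 54.0 CPM, each from at most 5 UMIs.

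For the other 6 receptors the ages overlapped in non-dividing cells. Cxcr4 averaged 432 CPM in aged and 482 CPM in young libraries, a log2 difference of -0.23 ± 0.32. Young replicate 2 was the highest library, at 663 CPM, and without it the difference was 0.020. Itga4 averaged 97.9 and 86.9 CPM (0.094 ± 0.30), Itgb1 42.6 and 35.9 CPM (0.15 ± 0.34) and Cd44 80.3 and 68.3 CPM (0.16 ± 0.32), aged before young. The difference of Itga4 changed sign without aged replicate 3 (-0.031) and without young replicate 2 (-0.077), and that of Cd44 without young replicate 3 (-0.053). Selplg averaged 127 CPM in aged and 105 CPM in young libraries (0.18 ± 0.30), and S1pr1 106 and 88.7 CPM (0.19 ± 0.30). The 95% interval of the log2 difference ran from -0.86 to 0.40 for Cxcr4 and from -0.40 to 0.77 for S1pr1.

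Of the pathway genes, none of the 67 tested in non-dividing cells was called by age, and none of the 44 tested in dividing cells was, against 0% and 0.0271% of all genes. At an unadjusted p under 0.05 there were 4 of the 67 (5.97%, against 1.87% of all genes) and 3 of the 44 (6.82%, against 4.71%). The 3 with the smallest p in non-dividing cells, Pik3cg, Mif and Rdx, had unadjusted p-values of 0.0148, 0.0246 and 0.0279 in edgeR's quasi-likelihood test and did not pass. In dividing cells the smallest were those of St3gal6, Rasgrp2 and Hmmr (0.00292, 0.0125 and 0.0283 by edgeR), which did not pass either. Within the resting stages none of the homing genes passed by age, the smallest unadjusted p being 0.0155 in pro-B (Cd69, then Pik3cg and Mif), 0.322 in small pre-B (Cd69, Foxo1, Rgs2), 0.00937 in late pre-B (Rap1b, Cd69, Arhgef1) and 0.00816 in immature B cells (Mif, Grk6, Pecam1), by edgeR. For the change of the age difference it was 0.00468 (Mif, then Rdx and St3gal6), which did not pass.

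Outside the B lineage the receptors took other levels. These cells were gated by the marker list with most of their UMIs, a rule chosen after seeing the data, and no class reached 10 cells in 2 libraries, so no test was possible and values are sums with 95% Poisson intervals that cover counting error only. Young replicate 1 held 83 cells led by neutrophil granule genes, 18 led by monocyte genes, 8 led by endothelial genes and 59 that met no list. Cd44 stood at 160 CPM in the granule-gene cells (139 to 184), 242 CPM in the monocyte-gated cells (171 to 334) and 352 CPM in the ungated cells (300 to 412), against 77.9 CPM in dividing (68.6 to 88.2) and 75.4 CPM in non-dividing (49.3 to 111) B-lineage cells of that library. Selplg stood at 105, 439 and 277 CPM in those 3 classes, against 49.9 CPM in dividing and 72.5 CPM in non-dividing B-lineage cells. The pro-B cells of that library had 99.9 CPM (51.6 to 174), so the granule-gene level was close to that stage. Of the 5 libraries, young replicate 1 had the lowest Selplg in both dividing and non-dividing B-lineage cells. Over the 5, non-dividing cells averaged 114 CPM, so the granule-gene level was not above that mean. Cxcr4 ran the other way, at 119 CPM in granule-gene (101 to 139) and 190 CPM in monocyte-gated cells (127 to 273), against 411 and 464 CPM in dividing and non-dividing B-lineage cells.

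S1pr1 was nearly absent from the myeloid cells, with 3 UMIs in the 83 granule-gene cells (2.32 CPM, 0.479 to 6.79) and 0 in the 18 monocyte-gated cells, where 0 UMIs allow up to 24.2 CPM. It was high in the endothelial-gated cells, at 454 CPM in the 8 of aged replicate 3 (196 to 894) and 264 CPM in the 8 of young replicate 1 (114 to 520), against 84.1 CPM in non-dividing B-lineage cells of young replicate 1 (56.3 to 121). Itga6 and Itgb1 stood at 132 and 363 CPM in the 8 endothelial-gated cells of young replicate 1. In its non-dividing B-lineage cells they stood at 37.7 and 29.0 CPM. The values of the 8 cells rest on few UMIs, that of Itga6 on the fewest, and the differences were not tested. B-lineage genes in these cells summed to 6.31% of the B-lineage level in granule-gene cells, 9.22% in monocyte-gated and 17.3% in endothelial-gated cells of young replicate 1. The part of that background in the receptor values was not tested. At equal depth, after thinning to 1000 UMIs, 11.6% of the 86 granule-gene cells of all libraries and 27.8% of the 18 monocyte-gated cells had a Cd44 UMI. Of B-lineage cells, 5.18% of pro-B, 13.1% of small pre-B, 8.65% of late pre-B, 7.34% of immature B, 8.84% of S-phase and 12.2% of G2/M cells had one. Of the resting B-lineage cells that met no gate, 4.29% did. Granule-gene cells thus lay within the B-lineage range. With all UMIs the shares were 76.7% in granule-gene, 77.8% in monocyte-gated and 12.4% to 36.9% in B-lineage cells, at median depths of 15390.5, 8617.5 and 1820 to 4144 UMIs.

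**Figure D5:**
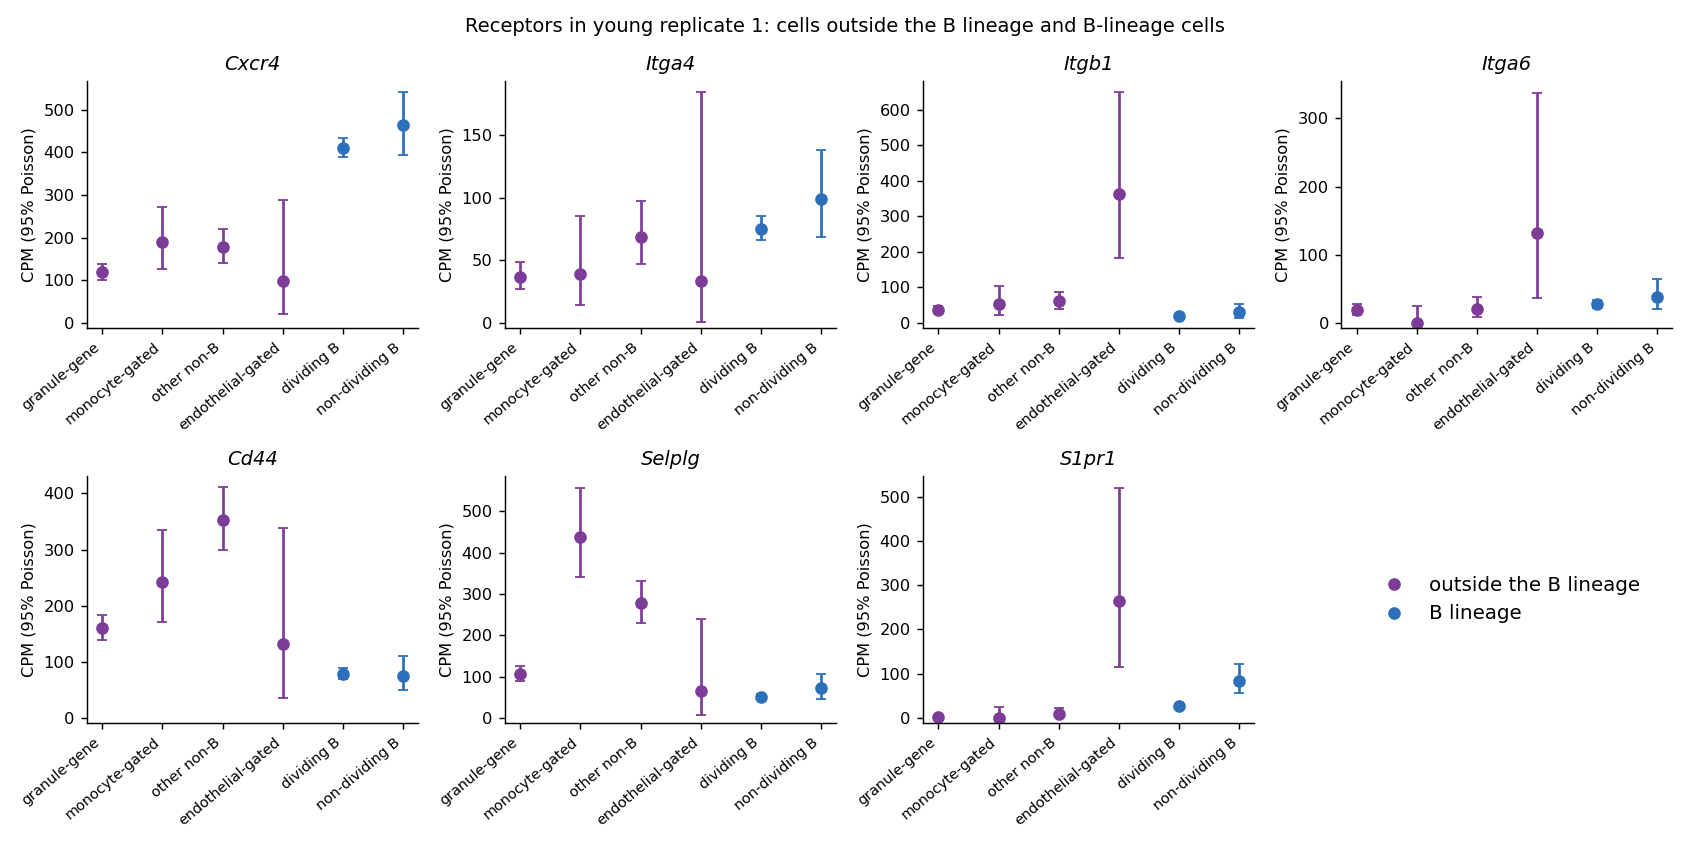
CPM (vertical axis, linear) of each receptor in the cell classes of young replicate 1, with 95% Poisson intervals that cover counting error only, classes outside the B lineage to the left of the B-lineage classes. Cd44 and Selplg are higher and Cxcr4 lower in the granule-gene and monocyte-gated cells than in the summed dividing and non-dividing B-lineage cells, and S1pr1 is highest in the 8 endothelial-gated cells.

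Among 1591 genes of at least 100 CPM on average, the 3 whose levels ran most like each receptor over 25 sums of class and library were listed by Pearson's r of log2(CPM + 10). These points share libraries and depth, so r is a description. For Cxcr4 they were Bach2 (0.86), Syk (0.86) and Cecr2 (0.85), and for S1pr1 Evl (0.88), Neat1 (0.87) and Gm26740 (0.86). Itga4 ran most like Slc25a4 (0.82), Nsa2 (0.78) and Eif4e2 (0.78), and Selplg like Gfra1 (0.80), Cyth1 (0.78) and Cdc37 (0.77). The rarer Itgb1 had Tsg101 (0.76), Hnrnpul1 (0.70) and Osbpl9 (0.69), Itga6 had Eif3k (0.75), Hnrnpc (0.75) and Ifi27l2a (0.66), and Cd44 had Pip4p1 (0.72), Pnn (0.68) and Bloc1s2 (0.67). The best matches were thus closest for Cxcr4 and S1pr1.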

How the data were processed

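The authors deposited a table of raw UMI counts for each library, with genes in rows and cells in columns. The submitters' processing notes list build mm10, Cell Ranger, DESeq2 1.22.2, edgeR 3.24.3 and R 3.5.2, with no roles. The Cell Ranger version is not given in the sources used here. Symbols were matched for 27645 of 27998 identifiers.

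Cells with at least 500 genes, 1000 UMIs and at most 10% mitochondrial UMIs were kept, 2116 of 3384 barcodes, at median depths of 1889.5 to 4212.5 UMIs per library. Scanpy 1.11.5 and leidenalg 0.10.2 (2000 variable genes without the 7 receptors, 30 components, 15 neighbours, resolution 0.8) gave the clusters. Scrublet called 49 doublets, which stayed in. Counts were summed per library and class of at least 10 cells and tested with edgeR 4.0.16 in R 4.3.3 (TMM, filterByExpr, quasi-likelihood F test, Benjamini-Hochberg over all genes, threshold 0.05). DESeq2 1.42.0 was an alternative. The planned second clustering of non-B cells was replaced by marker gates. Within-library differences used log2(CPM + 10). On simulated counts, edgeR recovered 100% of 4-fold changes (log2 2) between immature B and pro-B cells and 84.0% between ages in non-dividing cells, and 73.0% and 5.00% of those of log2 1. The naming rule was all receptors in every comparison, but where none was called they are mostly given by their range. Of the other homing genes it took those past the threshold, up to 10 by p, otherwise the 3 of smallest p. The receptors, lists, gates and tests were chosen with earlier results of these data known. Libraries are biological replicates per the series' design, and the labels do not say what a replicate number shares.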

Additional observations from a re-analysis of the deposited data

Results flagged for a closer look

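For the 7 receptors and 2 contrasts, within-library differences were examined for a library far from the other 4, and chance flags about 1 in 20 such groups. One stood out. Cd44 in immature B minus pro-B cells of young replicate 3 had a log2 difference of 1.44, against 0.81 to 0.90 in the other 4 libraries. Its pro-B level, 28.5 CPM, was the lowest of the 5, and its immature B level, 94.1 CPM, lay among the others.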

How the results depend on the processing

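All settings run kept the S1pr1 call in dividing cells and the Cxcr4 call in immature B against pro-B cells. Of 290 receptor values under the alternatives, 261 kept direction and side of the threshold, 15 lost and 5 gained the call, and 9 changed sign; of these, Itga4 by age in non-dividing cells was -0.019 with the looser barcode filter and -0.10 with classes from clusters, and between dividing and non-dividing cells Itga4 was 0.27 and Cd44 -0.076 within cells of few surrogate light chain UMIs and Itga6 0.074 with the looser filter. Leaving out 1 library at a time gave -0.45 to 0.020 for Cxcr4, -0.077 to 0.22 for Itga4 and -0.053 to 0.31 for Cd44 by age. Of 45 further receptor values, most given by range only, 34 changed sign under some alternative and 0 were called by edgeR or DESeq2 in any. The causes were not tested.

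Receptors called in immature B against pro-B cells, 4 in the report, were 1 with gates on all UMIs, 2 with the looser filter and 2 to 4 without single libraries, fewest without aged replicate 3. The 1 called in small pre-B against pro-B cells became 0 without the low-count filter and with gates on all UMIs, and 0 to 1 without single libraries; the 1 in dividing cells became 2 with gates on all UMIs, with classes from clusters and within either surrogate light chain group, and 1 to 2 without single libraries, 2 without young replicate 1.

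Genes called changed as follows. By age they were 13 in non-dividing and 8 in dividing cells without the filter, and 0 in dividing cells with DESeq2, gates on all UMIs or the looser filter. Immature B cells gave 3 and the age difference between classes 1 without the filter, and small pre-B cells 0 with the looser filter. Dividing against non-dividing gave 1600 with the looser filter, 1303 within cells with surrogate light chain UMIs and 1620 within those of few. Small pre-B minus pro-B gave 96 with gates on all UMIs, late minus small pre-B 46 without the filter, 1 with those gates and 5 with the looser filter, immature B minus late pre-B 46 with the looser filter, and immature B minus pro-B 1112 with classes from clusters. Without single libraries the counts ran from 0 to 6 in dividing cells by age (6 without young replicate 1, 3 without aged replicate 3 and 0 without each of the other 3), 0 to 2 in pro-B and in small pre-B, 0 to 1 in late pre-B, 0 to 3 in immature B, 0 to 1 for the age difference between classes, 271 to 401 for small pre-B minus pro-B and 49 to 91 for immature B minus late pre-B.

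Deviations of same-numbered libraries from the mean of their age correlated at 0.224 (number 2) and 0.179 (number 3), with only 2 pairs. The deviations of the 2 aged libraries are equal and opposite, so these values are not independent. The numbers were not taken to pair samples, although at both ages number 2 marked the library without Xist and with Y-linked UMIs. The age tests without the block did not account for that difference. With the replicate number as a block, genes called by age were 20 in non-dividing cells, 3 in late pre-B and 2 in immature B cells, no receptor was among the calls by edgeR, and Itga6 was -1.54 with an adjusted p of 0.306. Itga6 and Itgb1, at 161 and 203 UMIs, are limited most by depth.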
